A study of Homo sapiens with 27 samples.

Results

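SUM159, an established human triple negative breast cancer line with a mesenchymal appearance, was used to ask which genes change when the ZEB1 promoter is repressed by dCas9-KRAB brought there by a pool of 4 gRNAs. The comparison rests on 6 of the 27 libraries of the series, chosen by their labels: 3 of cells with the dCas9-KRAB vector and all 4 gRNAs (All gRNA) and 3 of cells with the same vector and no targeting gRNA (No gRNA). Both groups were transduced with lentivirus made in HEK293T cells, received 1.25 µg/mL puromycin from day 4, and differ by the gRNAs. The 3 wild type libraries of the same sequencing run serve as a comparison only to check the control. They come from cells without the vector that were not transduced and for which no puromycin is given. The vector, transduction and selection therefore cannot be told apart in that check. Together with 3 libraries of cells with gRNA 4 alone, the wild type libraries also entered the statistical fit. They thus share in its filter, its scaling and its estimate of the spread behind the p-values. One lentiviral vector carries dCas9-KRAB together with a gRNA, so the pooled cells need not all hold the same gRNAs, and the study's methods describe the replicates as individual clones. Of 57165 genes in the table, 15147 had enough counts to be tested, and the response was read across all of them.

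dCas9-KRAB is a Cas9 that binds DNA without cutting it, fused to a KRAB domain that recruits the TRIM28 corepressor and heterochromatin machinery to the site a gRNA names. ZEB1 is a zinc finger repressor that binds E-box letters such as CAGGTG, and it is known for silencing epithelial genes during the epithelial to mesenchymal transition (EMT). Epithelial cells are held together by adherens junctions, tight junctions and desmosomes and are fixed to laminin by hemidesmosomes, while mesenchymal cells make vimentin filaments and a fibrillar matrix of collagens and fibronectin.

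The 12 SUM159 libraries of the run held between 17114434 and 21473757 estimated counts, and replicates of All gRNA, No gRNA and wild type correlated within their group at 0.980 to 0.985 across genes (Pearson's r of log2 CPM). CPM are counts scaled to a common library total. In a principal component analysis of the All gRNA, No gRNA and wild type libraries, the first component (46.1% of the variance) set wild type cells apart from both vector groups, and the second (14.8%) set All gRNA apart from No gRNA. ESR1 and PGR, the hormone receptor genes that triple negative tumors lack, had 3 counts or fewer in all 6 libraries of the vector groups, and ERBB2 was expressed at 58.7 CPM in No gRNA and 47.7 CPM in All gRNA. Of 18 marker genes of blood, endothelial, neuronal and embryonic kidney cells, 9 were at 3 counts or fewer in all 6 libraries, among them PTPRC, CDH5, VWF and PAX2. Of the 6 that were tested, the endothelial adhesion gene PECAM1 was higher in All gRNA (2.59 to 6.36 CPM, moderated adjusted p = 0.0393) and KDR, a receptor of VEGF, lower (0.777 to 0.261 CPM, moderated adjusted p = 0.0455), and their part in other results was not tested. The summed level of the 18 was 21.03 to 23.9 CPM in No gRNA, 22.6 to 26.2 CPM in All gRNA and 16.3 to 19.2 CPM in wild type cells. Because these are bulk libraries, fewer cells that express a gene and less RNA per cell cannot be told apart, and p-values measure the spread between these libraries only.

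ZEB1 (chromosome 10, 31318495 to 31529814 of GRCh38, plus strand) was measured at 68.7, 74.8 and 70.8 CPM in the No gRNA libraries and at 0.786, 0.363 and 0.991 CPM in the All gRNA libraries. Every All gRNA library was far below every No gRNA and wild type library, and 0.999% of the No gRNA level remained (log2 fold change -6.70, SE 0.327, TREAT adjusted p = 5.47e-06). An exact permutation test on the same libraries, two-sided, gave p = 0.1, the smallest value that this design allows. Wild type cells had 82.1, 73.8 and 76.8 CPM, so the vector without gRNA left ZEB1 close to the level of untransduced cells. ZEB1-AS1, the antisense gene that starts beside ZEB1, was at 10.3, 10.7 and 10.04 CPM in No gRNA and at 0, 0.472 and 0.409 CPM in All gRNA, a fall to 2.84% (log2 fold change -5.83, SE 0.740, TREAT adjusted p = 0.00831). The genes overlap on opposite strands, and the strandedness of the libraries is not stated. Of 13 tested EMT transcription factors ZEB1 alone was lower, and SNAI2, another E-box repressor of epithelial genes (0.28, moderated adjusted p = 0.0115), and FOXC2 (0.30, moderated adjusted p = 0.0382) were slightly higher by the moderated test described next.

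Differences are given as log2 fold changes of All gRNA minus No gRNA with their standard error (SE). A gene was called when limma's TREAT, which tests whether a change is larger than 1 on the log2 scale, gave a Benjamini-Hochberg adjusted p under 0.05. TREAT called 60 of 15147 genes (0.396%), of which 50 were higher in All gRNA (0.33%) and 10 lower (0.066%), so that rises outnumbered falls 50 to 10. Limma's moderated test against a change of 0 called 1639 genes (10.8%), 898 higher (5.93%) and 741 lower (4.89%), and 790 of them (48.2%) differed by less than 0.5 on the log2 scale. Scaling by library totals alone gave 765 higher and 1013 lower, so the direction of the small changes leans on the scaling. The higher genes called by TREAT started low, at a median of 6.64 CPM in No gRNA, and reached a median of 27.1 CPM in All gRNA, with 7 of them over 100 CPM. The lower ones went from a median of 25.2 CPM to 3.92 CPM. For all 60 genes the 3 All gRNA values lay outside the range of the 3 No gRNA values, which was also the case for 29.7% of all genes tested.

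The 60 calls did not rest equally on all libraries. Leaving out No gRNA replicates 1, 2 and 3 in turn kept 30, 36 and 31 of the 60 calls, and leaving out any 1 All gRNA replicate kept 41. In all 6 of these fits 28 genes kept the TREAT call, ZEB1, ZEB1-AS1, SPINT1, CDH3, F11R, LSR, MAP7, KRT6A, LAMB3, COL17A1, DSP, CSF3, IL1B and CCL20 among them. A further 12 lost it in each of the 6 (SPARC, AREG, EPGN, DUSP6, SLPI, PI3, SCNN1G, MPZL2, KLC3, MRGPRX3 and SLC35F3 among them), with the same direction throughout. By the moderated test all 60 remained called in every 1 of the 6 fits.

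The strongest rises were in genes of the epithelial cell surface, led by the Kunitz-type protease inhibitors and by cadherin 3. SPINT1 (chromosome 15, 40844018 to 40858207), which encodes the membrane inhibitor HAI-1 of matriptase and of the activator of hepatocyte growth factor, was at 0.170, 0.246 and 0.385 CPM in No gRNA and 15.01, 11.8 and 16.7 CPM in All gRNA. All 3 All gRNA libraries lay above the 3 No gRNA and the 3 wild type libraries, a 50.96-fold difference (log2 fold change 5.67, SE 0.443, TREAT adjusted p = 0.000139). Its paralog SPINT2 (chromosome 19, 38244035 to 38292615), which encodes HAI-2, went from 0.460, 0.480 and 0.456 CPM to 10.7, 11.7 and 12.2 CPM (log2 fold change 4.55, SE 0.513, TREAT adjusted p = 0.00502). The 3 No gRNA libraries of SPINT2 were close to each other and far below the 3 All gRNA libraries. The call of SPINT2 was lost without No gRNA replicate 1 or 3, with a log2 fold change of 4.51 to 4.61 across the 6 fits that leave out 1 library. ST14, the gene of matriptase itself, was at 3 counts or fewer in all 6 libraries, as was TMPRSS4 of the same list, and 3 of its 4 tested members rose.

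EPCAM (chromosome 2, 47345158 to 47387601), the epithelial cell adhesion molecule, was not counted in any No gRNA library and stood at 0.891, 0.784 and 0.848 CPM in All gRNA (16.3, 14.4 and 16.2 counts). Against the floor of 3 counts per library this is at least 5.02-fold higher (TREAT adjusted p = 0.00230), a gain that is clear in direction and still leaves EPCAM a low transcript. Its call was also lost without No gRNA replicate 1 or 3.

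Among cadherins, CDH3 (chromosome 16, 68636189 to 68727468), which encodes P-cadherin, rose from 2.52, 3.43 and 1.33 CPM to 37.5, 42.9 and 40.1 CPM (log2 fold change 4.15, SE 0.246, TREAT adjusted p = 6.92e-05). Wild type cells had 0.388, 0.614 and 0.528 CPM of it, so that CDH3 was highest with All gRNA and lowest without the vector. CDH2, which encodes N-cadherin, was at 102, 91.2 and 95.5 CPM in No gRNA and 59.3, 67.3 and 66.6 CPM in All gRNA, a fall of smaller size that the moderated test called and TREAT did not (log2 fold change -0.58, SE 0.0690, moderated adjusted p = 0.000206). CDH1, which encodes E-cadherin, had 90.5, 4.84 and 4.58 counts in the 3 All gRNA libraries and at most 0.5 in any No gRNA library. One All gRNA library thus held nearly all of the CDH1 signal, the other two were just above 3 counts, and CDH1 did not pass the filter for testing. Of the 13 tested members of the list of adherens junctions, nectins and cadherins, 4 rose and 2 fell, with a median log2 fold change of -0.03 against 0.00 over all genes tested. NECTIN1, a nectin that links neighbouring cells, was another of the 4 (0.82, moderated adjusted p = 6.94e-06), and CDH6 the other that fell (-1.51, moderated adjusted p = 0.000382).

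Tight junction genes rose in 7 of 13 tested members and fell in 1, with a median of 0.58. F11R, which encodes the junctional adhesion molecule JAM-A, was at 5.26, 4.17 and 4.51 CPM in No gRNA, 32.2, 29.7 and 32.7 CPM in All gRNA and 0.628, 0.855 and 0.282 CPM in wild type cells. The 3 groups did not overlap, and All gRNA was 6.77-fold above No gRNA (log2 fold change 2.76, SE 0.165, TREAT adjusted p = 0.000135). LSR, a protein of the corners where 3 cells meet, was at 2.73, 7.22 and 8.24 CPM in No gRNA and 54.8, 57.6 and 51.96 CPM in All gRNA (log2 fold change 3.32, SE 0.285, TREAT adjusted p = 0.00152). No gRNA replicate 1 was the lowest library for LSR, and all 3 All gRNA libraries stood well above it and the others. PATJ, a scaffold of the apical junction, differed by 0.92, moderated adjusted p = 0.00206. CLDN1, the only member to fall, was a claudin that SUM159 cells already expressed and went from 91.5, 86.9 and 92.8 CPM to 46.5, 47.2 and 52.3 CPM (log2 fold change -0.89, SE 0.0653, moderated adjusted p = 4.13e-06). CLDN3, CLDN6 and CLDN23 were at 3 counts or fewer in all 6 libraries.

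**Figure D1:**
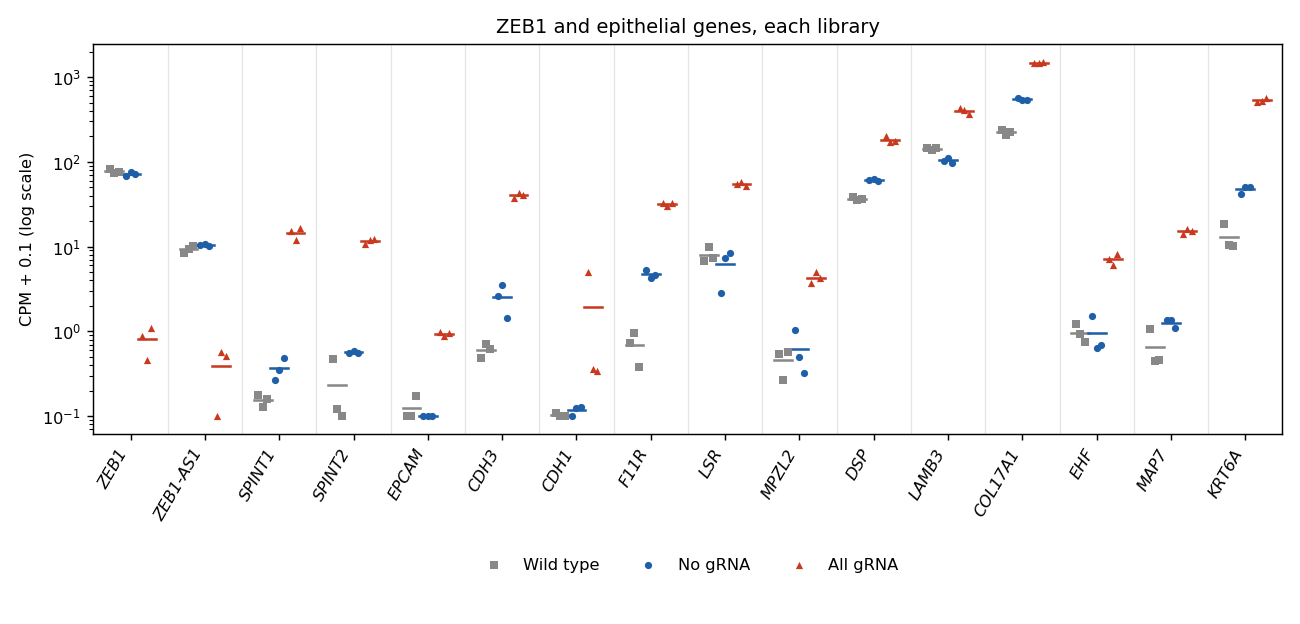
Every library's level (CPM + 0.1, log axis) of ZEB1, ZEB1-AS1 and 14 epithelial genes in wild type (grey squares), No gRNA (blue circles) and All gRNA cells (red triangles), with a bar at each mean. ZEB1 and ZEB1-AS1 drop with All gRNA while the other genes stand above both controls, and the 3 All gRNA points of CDH1 are spread, with 1 at 4.95 CPM and the others at 0.264 and 0.239 CPM.

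Genes of other cell contacts were also among the rises. DSP, which encodes desmoplakin, the protein that ties desmosomes to keratin filaments, was at 60.7, 62.6 and 59.8 CPM in No gRNA and 200.1, 171 and 174 CPM in All gRNA, with no overlap (log2 fold change 1.57, SE 0.0692, TREAT adjusted p = 0.00143). Of 10 tested desmosome genes 4 rose and none fell by the moderated test, the others being PKP3 (plakophilin 3, 1.22, moderated adjusted p = 0.000101), PERP (0.39, moderated adjusted p = 0.000293) and JUP (plakoglobin, 0.64, moderated adjusted p = 0.000673). The desmosomal genes DSG3 and PKP1 were at 3 counts or fewer in all 6 libraries. Gap junction genes rose in 6 of 7 tested members, with a median of 1.32. The connexin genes GJB5 (1.95, moderated adjusted p = 7.17e-05) and GJB2 (1.32, moderated adjusted p = 0.000806) rose from low levels, and the abundant GJA1, which encodes connexin 43, rose by less (0.40, moderated adjusted p = 0.000249). MPZL2, an adhesion molecule of the immunoglobulin family, was at 0.941, 0.403 and 0.227 CPM in No gRNA and 3.61, 4.86 and 4.13 CPM in All gRNA (log2 fold change 3.15, SE 0.433, TREAT adjusted p = 0.0474). In No gRNA it was close to the limit of detection, and its call was lost in all 6 fits that leave out a library, over which its log2 fold change ran from 2.69 to 3.67.

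Hemidesmosome genes included COL17A1, the most abundant transcript among the calls. COL17A1, the transmembrane collagen that spans the hemidesmosome, was at 567, 538 and 542 CPM in No gRNA and at 1472, 1465 and 1518 CPM in All gRNA. Replicates differed by little within each group, which made a fold change of modest size (1.44) one of the clearest calls (SE 0.0404, TREAT adjusted p = 0.000135). LAMB3, the beta chain of the laminin to which hemidesmosomes bind, went from 102, 112 and 97.7 CPM to 427, 405 and 368 CPM (log2 fold change 1.94, SE 0.0766, TREAT adjusted p = 7.13e-05). Its partner chain LAMA3 rose by less (0.58, moderated adjusted p = 0.0178). ITGB4, the integrin chain of the hemidesmosome, rose by 0.67, moderated adjusted p = 6.94e-06. In all, 6 of the 9 tested members of this list rose and none fell, with a median of 0.60. TNS4, a tensin of focal adhesions, rose from 7.64, 7.32 and 7.97 CPM to 26.7, 23.3 and 25.7 CPM (log2 fold change 1.72, SE 0.113, TREAT adjusted p = 0.00955), and this call held in 3 of the 6 fits.

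RefSeq promoter windows, which run from 250 bases before to 50 after the first listed start site of a gene, were searched for CAGGTG and its reverse complement CACCTG, the letters that ZEB1 is known to bind. The sequences below are those of junction, laminin, polarity and trafficking genes that rose, each a 30 base stretch on the gene's own strand, 5′ to 3′, in GRCh38.p14, with the motif in capitals.
DSP (chr6:7541481-7541510, plus strand, motif from base -178): gggcggcgggcgCAGGTGgggaggggcggc
DSP (chr6:7541574-7541603, plus strand, motif from base -85): gaagaaaccggcCAGGTGtggcctaggcgc
LAMB3 (chr1:209652626-209652655, minus strand, motif from base -218): agcccccacaggCAGGTGggcattgtggag
MAP7 (chr6:136550486-136550515, minus strand, motif from base -81): ccggactgcgctCACCTGtctgggccgctg
MAP7 (chr6:136550575-136550604, minus strand, motif from base -170): gctgccacgccgCACCTGcccgcgaggggg
CDS1 (chr4:84583088-84583117, plus strand, motif from base -27): cgtggagacgcgCACCTGgcaaccggaggc
TSPAN13 (chr7:16753522-16753551, plus strand, motif from base -221): gccctccctcctCACCTGctcctggggaaa

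Among the genes shown, DSP and MAP7 each hold the motif in 2 places, and in CDS1 it lies closest to the start site. The other higher genes with a match were AREG, KLC3, C1orf116, S100A9, SERPINA1 and UGT1A6. AREG and KLC3 hold it in 2 places, and in AREG it lies nearer the start site than in CDS1, from base -19. A window was at hand for 28 of the 50 higher genes, of which 11 (39.3%) held the motif and 4 held it more than once, and for 7 of the 10 lower genes, of which 3 held it. Those 3 were AFF2 and, at the targeted locus itself, ZEB1 and ZEB1-AS1. Higher genes whose window held no match included SPINT1, LSR, COL17A1 and EHF. The motif was in 20.6% of all 27195 promoter windows and in 17.9% of those of the genes tested. Because fewer than 80% of the higher genes had a window, these shares were not compared, and a match to these letters is no measure of binding.

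Epithelial transcription factors and the polarity list showed a few large rises among many low genes. EHF, an ETS factor of epithelial tissues, rose from 1.43, 0.530 and 0.592 CPM in No gRNA to 7.08, 5.94 and 8.07 CPM in All gRNA (log2 fold change 3.14, SE 0.315, TREAT adjusted p = 0.00589). Its No gRNA and wild type libraries overlapped and All gRNA lay above them, and its call was lost without No gRNA replicate 2 or 3. TP63, which encodes the p63 factor of basal epithelium (0.55, moderated adjusted p = 4.44e-05), and KLF5 (0.43, moderated adjusted p = 0.0179) rose slightly and stayed below their wild type means of 251.3 and 127 CPM. In this list 4 of 12 tested members rose and none fell, and OVOL1, OVOL2, GRHL2 and ELF5 were at 3 counts or fewer in all 6 libraries.

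Among 16 tested genes of polarity and apical trafficking 7 rose and none fell, with a median of 0.58. MAP7, which stabilizes microtubules in epithelial cells, was at 1.25, 1.25 and 0.999 CPM in No gRNA and 14.1, 16.2 and 15.1 CPM in All gRNA (log2 fold change 3.67, SE 0.250, TREAT adjusted p = 0.000135). TSPAN13, a tetraspanin, rose from 8.22, 8.88 and 7.60 CPM to 39.3, 39.7 and 37.1 CPM (log2 fold change 2.23, SE 0.105, TREAT adjusted p = 7.13e-05). CDS1, an enzyme of phosphoinositide synthesis, went from 6.81, 8.55 and 7.98 CPM to 28.02, 24.1 and 25.05 CPM (log2 fold change 1.73, SE 0.113, TREAT adjusted p = 0.00929), a call that was lost without No gRNA replicate 1 or 3. ARHGEF16, an activator of small GTPases, was the next by p-value (0.85, moderated adjusted p = 0.00102). KLC3, a kinesin light chain outside this list, was at 0.184, 0.0478 and 0.193 CPM and 2.41, 1.64 and 1.89 CPM in No gRNA and All gRNA (log2 fold change 3.69, SE 0.504, TREAT adjusted p = 0.0320). Its counts are uncertain because it overlaps ERCC2 on the other strand. RAB25, MYO5C and PROM2 of the list stayed at 3 counts or fewer in all 6 libraries.

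Keratins rose in 4 of 13 tested members and fell in 1. KRT6A, a keratin of activated and basal epithelium, was at 41.9, 51.1 and 50.04 CPM in No gRNA, 503, 525 and 571 CPM in All gRNA and 18.6, 10.4 and 10.1 CPM in wild type cells. The groups did not overlap, and its 11.2-fold rise was the largest among called genes over 100 CPM in All gRNA (log2 fold change 3.49, SE 0.145, TREAT adjusted p = 5.47e-06). KRT6A shares most of its sequence with KRT6B, so reads may be split between them, and KRT6B itself was low (0.228 CPM in No gRNA and 0.654 CPM in All gRNA). KRT18, a keratin of simple epithelium, rose from 204 to 306 CPM (0.59, moderated adjusted p = 1.12e-05), KRT16, a partner of KRT6A, rose from 0.226 to 0.728 CPM (1.64, moderated adjusted p = 0.0290), and KRT19 was at 3 counts or fewer in all of them. KRT5, a keratin of basal epithelium, was the 1 that fell, from a mean of 7.12 to 3.95 CPM, with All gRNA libraries spread over 3.48, 6.36 and 2.03 CPM (moderated adjusted p = 0.0439). None of the 6 tested splicing regulators passed the moderated test, the most abundant being MBNL1 (-0.01, moderated adjusted p = 0.920) and QKI (0.12, moderated adjusted p = 0.152).

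Matrix genes were among the falls outside the ZEB1 locus. CCDC80, a secreted matrix protein (chromosome 3, 112596797 to 112649530), was at 29.8, 27.2 and 22.7 CPM in No gRNA and 4.28, 5.15 and 3.56 CPM in All gRNA, below wild type cells at 19.7, 17.6 and 15.04 CPM (log2 fold change -2.62, SE 0.265, TREAT adjusted p = 0.0126). Its call was lost without No gRNA replicate 1 or All gRNA replicate 1 or 3, over a range of -2.75 to -2.48. SPARC, a collagen-binding glycoprotein, went from 221, 228 and 239 CPM to 89.9, 89.2 and 92.1 CPM (log2 fold change -1.34, SE 0.0685, TREAT adjusted p = 0.0474), with wild type cells at 233, 238 and 251.5 CPM. The drop of SPARC was even across libraries but close to the TREAT limit, and its call was lost in all 6 fits that leave out a library, at -1.37 to -1.31. Of 26 tested matrix glycoproteins and proteoglycans 8 fell and 5 rose, with a median of -0.01. The most abundant that fell were TGFBI, a TGF-beta induced adhesion protein (log2 fold change -0.97, SE 0.0403, moderated adjusted p = 8.13e-08), and FN1, which encodes fibronectin (log2 fold change -0.71, SE 0.0524, moderated adjusted p = 4.25e-06). TGFBI was at 2819, 2720.1 and 2759 CPM in No gRNA and 1308, 1440.3 and 1489 CPM in All gRNA. FN1 was at 2254, 2168 and 2198 CPM and 1449.7, 1314 and 1281 CPM. FBLN1, which encodes fibulin 1, fell from 175 to 84.7 CPM (-1.05, moderated adjusted p = 4.47e-06), with a wild type mean of 111.8 CPM. Beside wild type cells, 11 of the 26 were higher in No gRNA and 4 lower (21% and 21.9% of all genes tested). Summed over the list, levels were 8449 to 8565 CPM in No gRNA, 6149 to 6635 CPM in All gRNA and 6258 to 6375 CPM in wild type. The median for All gRNA minus wild type was 0.09, and the comparisons share libraries.

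In the list of collagens, which holds neither COL17A1 of the hemidesmosome list nor several low collagen genes, 8 of 16 tested members fell and 2 rose, with a median of -0.44, and none of the 16 was called by TREAT. COL12A1, a collagen that lies along fibrils, was at 80.9, 84.6 and 100.4 CPM in No gRNA and 33.7, 38.4 and 36.99 CPM in All gRNA (log2 fold change -1.28, SE 0.122, moderated adjusted p = 3.68e-05). COL5A1, a chain of a fibril-forming collagen, was at 54.9, 60.9 and 50.5 CPM and 20.3, 14.6 and 23.9 CPM (log2 fold change -1.52, SE 0.214, moderated adjusted p = 0.000798). COL3A1, another fibrillar collagen, was low in both groups, at 1.23, 1.87 and 1.20 CPM and 0.190, 0.252 and 0.124 CPM (log2 fold change -2.77, SE 0.370, moderated adjusted p = 0.000541). COL8A1, a network-forming collagen, went the other way, from 678 to 938 CPM (0.47, moderated adjusted p = 0.000274). In the control check the same collagen list was higher in No gRNA than in wild type cells, with 9 of 16 members higher and 3 lower (21% and 21.9% of all genes tested) and a median of 0.41. Its median for All gRNA minus wild type was 0.04, and the comparisons share libraries.

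**Figure D2:**
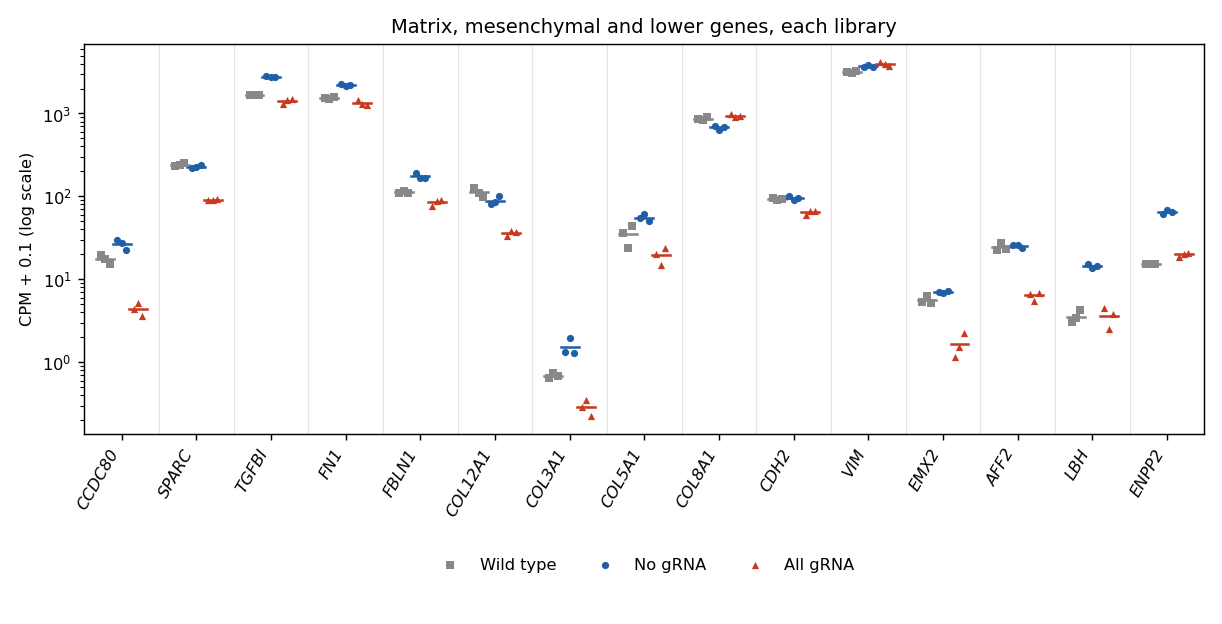
Levels in every library (CPM + 0.1, log axis) of matrix genes, mesenchymal genes and other genes called lower, in wild type (grey squares), No gRNA (blue circles) and All gRNA cells (red triangles), with a bar at each mean. CCDC80, SPARC, EMX2 and AFF2 lie below both controls with All gRNA, LBH lies at wild type levels, ENPP2 lies just above them, and VIM overlaps between No gRNA and All gRNA.

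VIM, which encodes the vimentin filament of mesenchymal cells, was at 3627, 3844 and 3656 CPM in No gRNA and 4212, 3902 and 3726 CPM in All gRNA, and the groups overlapped (log2 fold change 0.09, SE 0.0523, moderated adjusted p = 0.330). Of 16 tested mesenchymal and contractile genes 4 fell and 3 rose. S100A4, a calcium-binding protein of motile cells, fell from 5.89 to 2.01 CPM (-1.54, moderated adjusted p = 2.34e-05), and LGALS1, which encodes galectin 1 (0.29, moderated adjusted p = 0.00587), CNN2 (0.62, moderated adjusted p = 0.00350) and FHL2 (0.32, moderated adjusted p = 0.00266) rose slightly. In the list of metalloproteinases, TIMPs and the plasminogen system 5 of 16 members rose and 2 fell. TIMP1, an inhibitor of metalloproteinases (0.76, moderated adjusted p = 5.21e-06), PLAUR, the urokinase receptor (1.23, moderated adjusted p = 4.68e-05), and PLAT, tissue plasminogen activator (0.37, moderated adjusted p = 0.000546), were higher. Of 12 tested integrins, without ITGB4 and ITGA6 of the hemidesmosome list, 3 rose (ITGA2, ITGA3 and ITGB5, by 0.29 to 0.49) and ITGA1 fell (-0.44, moderated adjusted p = 0.0237).

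Further falls called by TREAT were in regulators and enzymes. EMX2, a homeobox factor, was at 7.004, 6.74 and 7.05 CPM in No gRNA and 1.04, 1.44 and 2.15 CPM in All gRNA (log2 fold change -2.20, SE 0.225, TREAT adjusted p = 0.0320), and its call held in 1 of the 6 fits that leave out a library. AFF2, a nuclear protein of the AF4 family, was at 25.7, 25.6 and 24.05 CPM and 6.64, 5.40 and 6.81 CPM (log2 fold change -2.00, SE 0.140, TREAT adjusted p = 0.00413). In both, All gRNA was below every No gRNA and wild type library. ENSG00000260604, a gene without a symbol, fell from 25.2 to 7.52 CPM (log2 fold change -1.75, SE 0.104, TREAT adjusted p = 0.00405).

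Falls in 2 further genes looked different beside wild type cells. ENPP2, which encodes autotaxin, the enzyme that makes lysophosphatidic acid, was at 60.9, 68.8 and 64.4 CPM in No gRNA and 18.4, 20.4 and 20.8 CPM in All gRNA (log2 fold change -1.70, SE 0.0743, TREAT adjusted p = 0.000376). Wild type cells had 15.4, 15.4 and 15.04 CPM, below All gRNA. LBH, a regulator of transcription, was at 15.3, 13.4 and 14.6 CPM and 4.40, 2.43 and 3.68 CPM (log2 fold change -2.07, SE 0.197, TREAT adjusted p = 0.0282), with wild type cells at 2.95, 3.29 and 4.13 CPM. For LBH the All gRNA and wild type libraries overlapped, and No gRNA was the group that stood apart. The call of LBH held in 1 of the 6 fits.

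Set against wild type cells, 45 of the 50 higher genes lay above all 3 wild type libraries in All gRNA (28.8% of all genes tested did so), 3 overlapped them (EGR1, DUSP6 and EPGN) and 2 lay below them (CCL20 and PHLDA1). Of the 10 lower genes 7 lay below all 3 wild type libraries (28.4% of all genes tested), 2 overlapped and 1 lay above. With wild type as the control in place of No gRNA, 40 of the 60 remained called, among 349 genes in all (2.3%). The control itself differed from wild type cells, with 231 genes called by TREAT (1.53%), 157 higher and 74 lower, and 6498 by the moderated test (42.9%). These comparisons share libraries, so the values are set side by side without a test between them.

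Cytokine genes were among those that rose toward or past wild type levels. CSF3, which encodes the granulocyte factor G-CSF, was at 30.1, 36.7 and 32.4 CPM in No gRNA and 235, 189 and 189 CPM in All gRNA, with 55.6, 54.02 and 70.5 CPM in wild type cells (log2 fold change 2.62, SE 0.150, TREAT adjusted p = 0.000135). IL1B, which encodes interleukin 1 beta, was at 11.4, 10.5 and 11.04 CPM and 54.5, 60.7 and 54.3 CPM (log2 fold change 2.36, SE 0.115, TREAT adjusted p = 7.13e-05), and its wild type libraries, at 45, 51.3 and 44.8 CPM, lay just below All gRNA. CCL20, a chemokine that draws lymphocytes and dendritic cells through CCR6, was at 4.98, 5.82 and 5.63 CPM and 18.5, 19.3 and 20.2 CPM (log2 fold change 1.82, SE 0.106, TREAT adjusted p = 0.00230), below its wild type values of 34.7, 33 and 35.04 CPM. CXCL8, which encodes interleukin 8, rose without passing TREAT, from 284, 242 and 290.2 CPM to 495, 549 and 582 CPM (log2 fold change 1.00, SE 0.0841, moderated adjusted p = 1.42e-05), and was at 1474, 1491 and 1486 CPM in wild type cells. Of 25 tested cytokines and chemokines 7 rose and 5 fell, with a median of 0.28. Among 14 NF-kappaB response genes PTGS2, which encodes COX-2 (1.94, moderated adjusted p = 0.000379), and TNFAIP8 (0.37, moderated adjusted p = 0.0207) rose and TNFAIP2 fell (-0.62, moderated adjusted p = 3.22e-05). Beside wild type cells, 11 of these 14 were lower in No gRNA and 0 higher (21.9% and 21% of all genes tested). PTGS2 was at 1.60 CPM in No gRNA, 6.11 CPM in All gRNA and 8.29 CPM in wild type cells. TREM1, a receptor that amplifies inflammatory signals in myeloid cells, rose from 24.96, 20 and 25.5 CPM to 86.2, 89.5 and 91.7 CPM (log2 fold change 1.93, SE 0.0902, TREAT adjusted p = 0.000162).

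Ligands of the EGF receptor were among the rises. Of 12 tested ERBB receptors and EGF-family ligands 5 rose and none fell, with a median of 0.58, and the 5 were all ligands. AREG, which encodes amphiregulin, was at 13.02, 12.9 and 14.4 CPM in No gRNA and 37.4, 38.04 and 35.6 CPM in All gRNA (log2 fold change 1.46, SE 0.0851, TREAT adjusted p = 0.0299). EPGN, which encodes epigen, went from 2.09, 1.88 and 2.82 CPM to 11.5, 10.1 and 10.4 CPM (log2 fold change 2.24, SE 0.242, TREAT adjusted p = 0.0390). Both calls were lost in all 6 fits that leave out a library, at a log2 fold change of 1.43 to 1.51 for AREG and 2.12 to 2.41 for EPGN. EREG, which encodes epiregulin and was the most abundant of the ligands, rose from 235, 230.4 and 238 CPM to 492, 478 and 479 CPM (log2 fold change 1.04, SE 0.0482, moderated adjusted p = 1.43e-07). HBEGF (1.61, moderated adjusted p = 7.10e-06) and TGFA (0.92, moderated adjusted p = 6.76e-06) rose as well. In the control check 7 of the 12 were lower in No gRNA than in wild type cells and 2 higher (21.9% and 21% of all genes tested), with a median of -0.41. The median for All gRNA minus wild type was 0.26, and the comparisons share libraries. With All gRNA, EREG and HBEGF were on average below their wild type level, EPGN overlapped it, and AREG lay above it.

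Some genes that respond early to growth factor signals rose as well. EGR1, an immediate early factor, was at 8.29, 7.21 and 9.28 CPM in No gRNA, 45.8, 39.4 and 40.97 CPM in All gRNA and 43.3, 40.5 and 42.99 CPM in wild type cells (log2 fold change 2.34, SE 0.115, TREAT adjusted p = 7.13e-05). DUSP6, a phosphatase of ERK, was at 14.9, 16.5 and 14.7 CPM, 46.2, 44.2 and 43.7 CPM and 44.9, 41.1 and 41.9 CPM in the same order (log2 fold change 1.54, SE 0.0963, TREAT adjusted p = 0.0233). In both, All gRNA and wild type overlapped and No gRNA was low. PHLDA1 rose from 65.7, 67.5 and 60.7 CPM to 177, 169.8 and 161 CPM and stayed below its wild type values of 262, 256 and 278 CPM (log2 fold change 1.39, SE 0.0651, TREAT adjusted p = 0.0143). Of 12 tested AP-1 and related early genes 4 rose and none fell, the others being FOSB (1.59, moderated adjusted p = 0.00262), FOSL1 (0.21, moderated adjusted p = 0.0290) and JUN (0.48, moderated adjusted p = 0.0347). Beside wild type cells, 7 of these 12 were lower in No gRNA and 0 higher (21.9% and 21% of all genes tested). The call of DUSP6 was lost in all 6 fits that leave out a library (1.51 to 1.59), and that of PHLDA1 in 4.

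**Figure D3:**
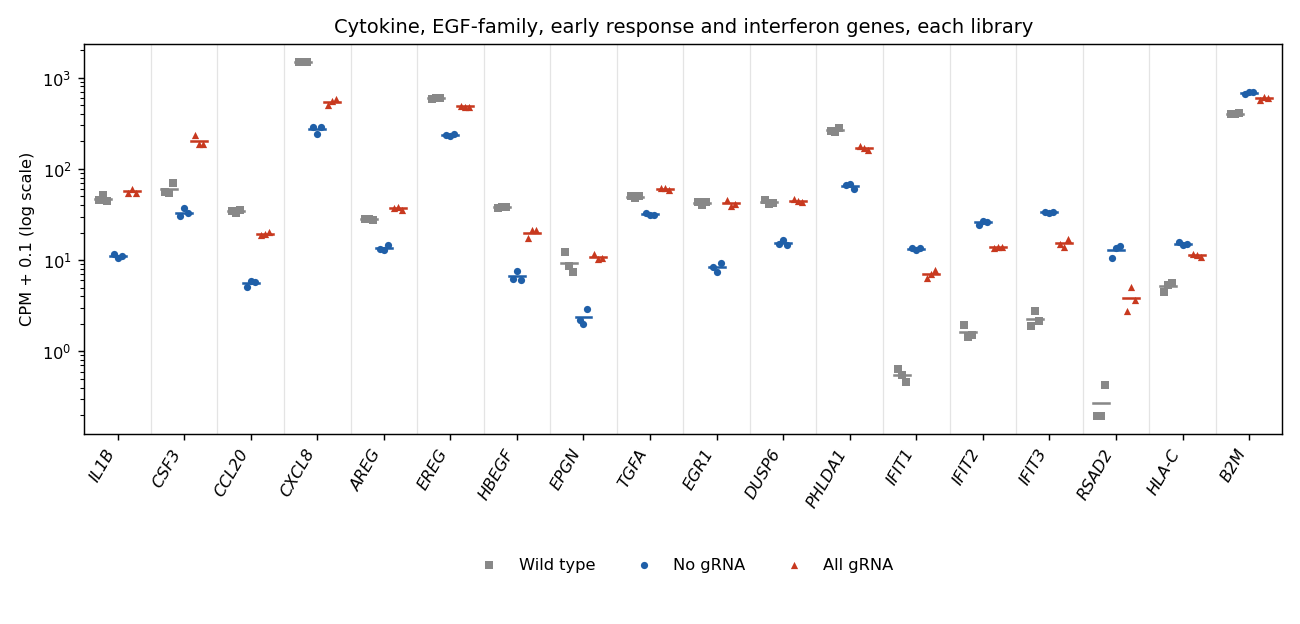
Levels in every library (CPM + 0.1, log axis) of cytokines, EGF-family ligands, early response genes, interferon-stimulated genes and MHC class I genes in wild type (grey squares), No gRNA (blue circles) and All gRNA cells (red triangles), with a bar at each mean. From IL1B to PHLDA1 the No gRNA libraries are the lowest, while from IFIT1 to B2M they are the highest and All gRNA lies between No gRNA and wild type.

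Of 32 tested interferon-stimulated genes 9 fell and none rose by the moderated test, with a median of -0.30, and TREAT called none of them. IFIT3, an antiviral protein that binds foreign RNA with its partners, was at 33.9, 32.9 and 33.8 CPM in No gRNA and 14.9, 13.9 and 16.7 CPM in All gRNA (log2 fold change -1.15, SE 0.103, moderated adjusted p = 2.34e-05). RSAD2, which encodes the antiviral enzyme viperin, was at 10.5, 13.4 and 14.2 CPM and 2.69, 5.01 and 3.58 CPM (log2 fold change -1.78, SE 0.215, moderated adjusted p = 0.000235). IFIT2 (-0.91, moderated adjusted p = 3.12e-05) and IFIT1 (-0.93, moderated adjusted p = 0.000144) fell alongside them. All gRNA lay below No gRNA and above wild type cells for these genes, with IFIT3 at 1.78, 2.69 and 2.03 CPM and RSAD2 at 0.0946, 0.0958 and 0.330 CPM in wild type. In the control check 20 of the 32 were higher in No gRNA than in wild type cells and 1 lower (21% and 21.9% of all genes tested). The median of that check was 1.11, and the median for All gRNA minus wild type was 0.86. Of 14 tested genes of MHC class I presentation 4 fell and none rose, ERAP2 (-0.72, moderated adjusted p = 0.00331), ERAP1 (-0.35, moderated adjusted p = 0.00935), HLA-C (-0.43, moderated adjusted p = 0.0334) and B2M (-0.20, moderated adjusted p = 0.0396), all by less than 1 on the log2 scale. The amount of vector transcript in each library was not measured, and its part in these differences was not tested.

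Lists of other signalling pathways held members that rose and members that fell. WNT7B, a ligand of the WNT pathway, rose from 1.39, 1.66 and 1.51 CPM to 12.04, 9.47 and 8.65 CPM (log2 fold change 2.69, SE 0.243, TREAT adjusted p = 0.00488), a call that was lost without No gRNA replicate 1. Of 22 tested WNT ligands, receptors and antagonists 3 rose and 2 fell, with the secreted protein DKK3 lower (-0.64, moderated adjusted p = 2.95e-05) and the receptors FZD6 (0.34, moderated adjusted p = 0.00365) and FZD8 (0.81, moderated adjusted p = 0.0276) higher. In the TGF-beta pathway 3 of 25 rose and 4 fell, and the receptors went in opposite directions, TGFBR2 by 0.41, moderated adjusted p = 1.08e-05 and TGFBR1 by -0.58, moderated adjusted p = 0.00321. ID2, a target of this pathway (-0.68, moderated adjusted p = 0.00721), and BMP1, a protease that processes procollagens (-0.48, moderated adjusted p = 0.0165), were lower. Of 15 tested YAP and TAZ targets 5 fell and 3 rose, with the receptor kinase AXL (-0.64, moderated adjusted p = 2.33e-05) and AJUBA (-0.93, moderated adjusted p = 4.54e-05) lower and WWTR1, which encodes TAZ itself (0.56, moderated adjusted p = 0.00384), and AMOTL1 (0.65, moderated adjusted p = 0.00501) higher. Beside wild type cells, 10 of these 15 were lower in No gRNA and 0 higher (21.9% and 21% of all genes tested).

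In the S100 list, which does not hold S100A4 of the mesenchymal list, 8 of 10 tested members rose and none fell, with a median of 0.45. S100A9, a subunit of calprotectin, was at 0.218, 0.965 and 0.640 CPM in No gRNA and 3.99, 3.90 and 3.70 CPM in All gRNA (log2 fold change 2.84, SE 0.355, TREAT adjusted p = 0.0371), a call that held in 1 of the 6 fits that leave out a library (2.26 to 3.26). The abundant S100A2 (1.25, moderated adjusted p = 4.36e-07) and S100A16 (0.50, moderated adjusted p = 5.54e-05) and the less abundant S100P (1.11, moderated adjusted p = 0.000750) rose too. SLPI and PI3, which encode the antiproteases SLPI and elafin, were both higher in No gRNA than in wild type cells and higher still in All gRNA. SLPI was at 1.76, 14.6 and 40.8 CPM in wild type, No gRNA and All gRNA (log2 fold change 1.48, SE 0.0970, TREAT adjusted p = 0.0478), and PI3 at 1.02, 9.71 and 28.5 CPM (log2 fold change 1.55, SE 0.105, TREAT adjusted p = 0.0336). Both calls were lost in all 6 fits, at 1.42 to 1.52 for SLPI and 1.51 to 1.62 for PI3.

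SERPINA1, the gene of alpha-1 antitrypsin, rose from 18.2, 15.2 and 20.9 CPM to 60.3, 65.3 and 64.6 CPM (log2 fold change 1.82, SE 0.103, TREAT adjusted p = 0.00188). TFPI2, an inhibitor of matrix proteases and of tissue factor, rose from 115.9, 133 and 137 CPM to 451, 429.9 and 447 CPM (log2 fold change 1.78, SE 0.0659, TREAT adjusted p = 7.13e-05), with a counting uncertainty from GNGT1 on the other strand. AQP3, a channel for water and glycerol in epithelia, went from 2.26, 2.03 and 3.08 CPM to 12.4, 11.3 and 11.8 CPM (log2 fold change 2.27, SE 0.166, TREAT adjusted p = 0.00230). In these genes the groups were well apart and the call held without any 1 library. SCNN1G, a subunit of the epithelial sodium channel, rose from a mean of 7.23 to 20.6 CPM (log2 fold change 1.51, SE 0.102, TREAT adjusted p = 0.0453), but its call was lost in all 6 fits (1.47 to 1.54). THBD, which encodes thrombomodulin, the thrombin receptor on the cell surface, rose from 30.7 to 88.3 CPM (log2 fold change 1.52, SE 0.0877, TREAT adjusted p = 0.0153) and kept its call in 3 of the 6. STC1, a secreted glycoprotein hormone, rose from 16.04 to 47.2 CPM (log2 fold change 1.57, SE 0.0985, TREAT adjusted p = 0.0194) and kept it in 2.

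Called genes that no list holds included several that were low in No gRNA. C1orf116 was at 0.198, 0.0687 and 0.0645 CPM in No gRNA and 1.89, 1.68 and 1.43 CPM in All gRNA (log2 fold change 3.73, SE 0.436, TREAT adjusted p = 0.0104), and its call held in 3 of the 6 fits. MRGPRX3, a G protein-coupled receptor, was at 0, 0.276 and 0.104 CPM and 1.53, 1.45 and 2.13 CPM (log2 fold change 4.06, SE 0.604, TREAT adjusted p = 0.0429). SLC35F3, a member of a solute carrier family, had at most 3 counts in every No gRNA library and 9.14, 12.1 and 15.2 counts in All gRNA, at least 3.88-fold higher (TREAT adjusted p = 0.0372). CYTH4, a cytohesin that activates ARF GTPases, was at 0.853, 0.888 and 1.05 CPM and 7.34, 9.12 and 6.03 CPM (log2 fold change 2.95, SE 0.316, TREAT adjusted p = 0.0116), and wild type cells had 2.22, 2.51 and 3.82 CPM. The calls of MRGPRX3 and SLC35F3 were lost in all 6 fits and that of CYTH4 in 3. ANKRD22, TSPAN18, ARG2, UGT1A6 and 2 genes without a symbol rose as well, with log2 fold changes of 1.63 to 2.88, the calls of ANKRD22 and TSPAN18 holding in 4 and 2 of the 6 fits. UGT1A6 shares exons with the rest of its gene cluster, and TSPAN18 and ARG2 overlap genes on the other strand, so their counts are uncertain.

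In detoxification and metabolic lists most of the named differences were under 1 on the log2 scale. Of 17 tested NRF2 targets and aldo-keto reductases 8 rose and 2 fell, with a median of 0.19. AKR1C1, a reductase of steroids and aldehydes whose counts may mix with its near-identical paralogs, rose from 24.9, 22.1 and 23.2 CPM to 58.9, 65.2 and 69.3 CPM (log2 fold change 1.46, SE 0.0889, TREAT adjusted p = 0.0371), a call that held in 1 of the 6 fits (1.41 to 1.52). AKR1C2 (0.37, moderated adjusted p = 0.00130) and GCLM, a subunit of the enzyme that starts glutathione synthesis (0.73, moderated adjusted p = 2.33e-05), rose by less, and FTL, the ferritin light chain, fell (-0.20, moderated adjusted p = 0.00147). Glycolysis and hypoxia genes rose in 10 of 29 and fell in none, with a median of 0.11, among them NDRG1 (0.66, moderated adjusted p = 6.57e-05), the oxygen sensor EGLN3 (0.98, moderated adjusted p = 0.000155), VEGFA (0.48, moderated adjusted p = 0.00105) and the glycolytic enzyme PGAM1 (0.25, moderated adjusted p = 0.00165). Of 27 genes of cholesterol and fatty acid synthesis 3 rose and 3 fell, with SREBF1, the lipogenic regulator, lower (-0.50, moderated adjusted p = 0.00293). Of 22 genes of the unfolded protein and ATF4 responses 3 rose and 4 fell, with the chaperone HSPA5 at 0.15, moderated adjusted p = 0.00580 and the amino acid transporter SLC7A5 at -0.33, moderated adjusted p = 0.00193.

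Genes of the cell cycle lists were called in both directions by the moderated test, which called 10.8% of all genes tested (5.93% higher and 4.89% lower). Of 21 tested genes of mitosis and G2/M 2 rose, CCNB1 (0.28, moderated adjusted p = 0.00874) and MKI67 (0.34, moderated adjusted p = 0.0365), and none fell, with a median of 0.01. Of 20 genes of DNA replication and G1/S 1 rose, RRM2 (0.45, moderated adjusted p = 0.0106), and 3 fell, E2F1 (-0.79, moderated adjusted p = 0.000433), E2F2 (-0.93, moderated adjusted p = 0.00839) and TYMS (-0.51, moderated adjusted p = 0.0226), with a median of -0.08. In the control check 16 of these 20 were lower in No gRNA than in wild type cells and 1 higher (21.9% and 21% of all genes tested). The median of that check was -0.999, and All gRNA minus wild type had a median of -1.11. CDKN1A, the p53 target that inhibits cyclin-dependent kinases, rose by 0.33, moderated adjusted p = 0.00564, and was the only one of 15 tested p53 targets to pass the moderated test. Of 11 tested D cyclins, CDKs and CDK inhibitors 2 rose and 1 fell. CDKN1A and CCND1, which encodes cyclin D1 (0.31, moderated adjusted p = 0.0415), rose, and CDKN2C, another kinase inhibitor, fell (-0.50, moderated adjusted p = 0.00652). In the BCL2 family 3 of 14 tested members rose and 2 fell, and the anti-apoptotic genes split. MCL1 rose from 600.4 to 1029 CPM (0.78, moderated adjusted p = 9.70e-08), BCL2 fell from 31.5 to 14.8 CPM (-1.06, moderated adjusted p = 0.00407), and BCL2A1 went from 0.297, 0.452 and 0.406 CPM to 3.05, 2.62 and 3.54 CPM (log2 fold change 2.92, SE 0.346, TREAT adjusted p = 0.0249), a call that held in 1 of the 6 fits.

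Stem cell and claudin-low markers rose in 4 of 11 tested members and fell in none, NT5E (CD73, 0.79, moderated adjusted p = 6.57e-05), CD44 (0.32, moderated adjusted p = 0.00134), PROCR (0.38, moderated adjusted p = 0.00143) and ALDH1A1 (1.03, moderated adjusted p = 0.00222). Of the machinery that KRAB and ZEB1 use 2 of 19 corepressor genes were lower, the HP1 genes CBX5 (-0.37, moderated adjusted p = 0.00193) and CBX1 (-0.34, moderated adjusted p = 0.0259), and none higher. None of 10 genes of DNA methylation passed the moderated test, DNMT1 being the most abundant (-0.02, moderated adjusted p = 0.906). Over all 40 lists, 600 of the 710 listed genes were tested and 213 were called by the moderated test, against 10.8% of all genes tested. The lists were chosen with earlier results of these data known, so this count is a description only.

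**Figure D4:**
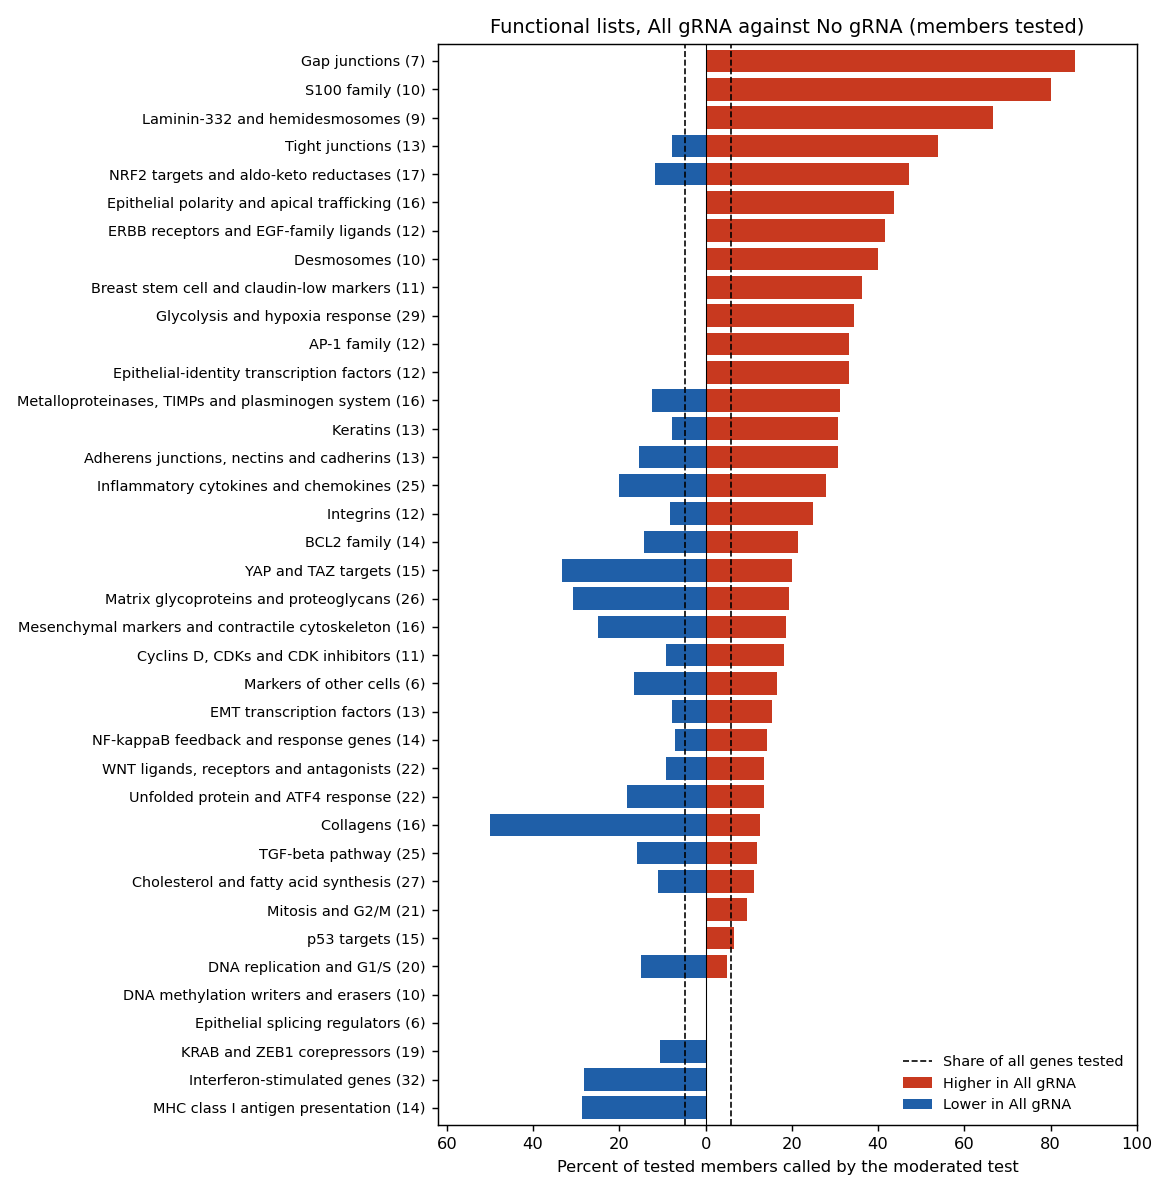
Percent of the tested members of each functional list (number in brackets) that the moderated test called higher (red, to the right) or lower (blue, to the left) in All gRNA against No gRNA, for lists with at least 6 tested members. Dashed lines mark the shares over all genes tested, 5.93% higher and 4.89% lower; gap junction, S100 and hemidesmosome genes reach farthest to the right and collagens farthest to the left.

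Among genes near the limit of detection, most of them too low to be tested, 100 were at 3 counts or fewer in each No gRNA library and above 3 in every All gRNA library, 43 of them protein coding, while 43 did the reverse, 23 of them protein coding. MUC2, which encodes a gel-forming mucin, had 63.8, 26.5 and 75.3 counts in the All gRNA libraries, at least 17.6-fold above the floor of No gRNA (moderated adjusted p = 0.00769, TREAT adjusted p = 0.202). SEMA7A, a membrane-anchored semaphorin, had 35.4, 24.4 and 34.6 counts, at least 10.1-fold higher (moderated adjusted p = 0.00739). IL36G, an epithelial cytokine of the interleukin 1 family, had 10.2, 7.41 and 16.1 counts, at least 3.59-fold higher (moderated adjusted p = 0.00227). RNASE7, an antimicrobial ribonuclease of skin, had 6.86, 15.5 and 8.20 counts and was not tested. These genes stayed at levels of a few CPM or less, where All gRNA libraries differed among themselves by more than the abundant genes did. Of the 100 genes, 19 passed the filter for testing, TREAT called 2 (EPCAM and SLC35F3) and the moderated test 13. Of the 43 that fell to the floor 8 were tested, and the moderated test called 5 and TREAT none. Over all genes tested TREAT called 0.396% and the moderated test 10.8%. Both sets were picked by the same libraries that the tests compare, so these counts follow from the choice and are a description only. APCDD1, an inhibitor of WNT signalling, had 17.1, 25.4 and 14.4 counts in the No gRNA libraries and was at least 6.61-fold lower in All gRNA (moderated adjusted p = 0.00769). CCL2, a chemokine that draws monocytes, had 7.88, 11.4 and 16.7 counts in No gRNA and was at least 4.14-fold lower (moderated adjusted p = 0.0104). LEKR1 had 3.34, 19.3 and 102 counts, so that its difference lay mostly in 1 No gRNA library, and the moderated test did not call it (adjusted p = 0.228).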

How the data were processed

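The authors quantified 50 bp single-end reads with Salmon against GRCh38 (version and annotation not given in the sources used here), summed transcripts to genes with tximport and deposited estimated counts corrected for transcript length and not normalized between libraries. The values compared here are therefore estimates that can split reads between similar genes. Groups were taken from the labels. The 12 SUM159 libraries of run 1 (wild type, No gRNA, gRNA 4 and All gRNA, 3 each) entered 1 voom-limma fit, which shares the estimate of the spread, and the other 15 libraries were not used here. The tools were limma 3.58.1, DESeq2 1.42.0 and edgeR 4.0.16 in R 4.3.3. Totals were scaled by TMM, 0.5 was added to each count in voom, and filterByExpr, set to a count minimum of 10, removed low genes. TREAT tested against a log2 fold change of 1 and the moderated test against 0, both two-sided, with Benjamini-Hochberg adjusted p under 0.05 over all 15147 genes. Folds against a group at or under 3 counts per library are lower bounds that cover counting error only. Of the gene IDs, 56347 of 57165 were matched to GENCODE symbols. The scripts were tested on simulated data. Estimated counts were rounded for edgeR and DESeq2.

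The comparison, the 40 lists and their members were chosen with earlier results of these data known. Named are ZEB1 and ZEB1-AS1, genes called by TREAT, up to 4 members per list with the smallest moderated p among those called, or the 2 most abundant where none was called, genes that rose from the floor, and ESR1, PGR, ERBB2, CDH1, CDH2 and VIM. KRT5, APCDD1, CCL2, LEKR1 and list members at or under 3 counts were named after their values were seen. Some genes that this rule names are not reported here. Alternatives were other scalings, filters, tests, fits with fewer libraries, sample weights, a replicate block and wild type as the control.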

Additional observations from a re-analysis of the deposited data

How the results depend on the processing

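ZEB1 kept its call and direction in every alternative run, at log2 fold changes of -6.98 to -6.29 when 1 library was left out. The 60 genes called by TREAT became 39 (34 higher and 5 lower) with only the 2 groups in the fit, 349 (252 and 97) with wild type as the control and 368 (231 and 137) by the moderated test with a log2 fold change over 1, a rule that asks less than TREAT. Leaving out 1 library gave 31 to 43 calls by TREAT, 1048 to 1300 by the moderated test and 147 to 180 by TREAT for No gRNA against wild type, all from fewer libraries. EdgeR's quasi-likelihood test called 363 genes (269 and 94) for No gRNA against wild type, and the cause was not tested. With wild type as the control the moderated test called 7384 genes, and 388 listed genes in place of 213. Scaling by library totals turned the split of the moderated calls to 765 higher and 1013 lower. Leaving out called genes whose All gRNA libraries do not lie beyond wild type, an alternative chosen after seeing the data, left 52 (45 and 7).

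Replicate numbers did not pair the libraries (correlations of same-numbered deviations of -0.025, 0.046 and 0.023, and only replicate 2 of All gRNA correlated best with its own number). With the number as a replicate block TREAT called 47 genes (39 and 8), the moderated test 1427 and the lists 196, ZEB1 was at -6.65, and No gRNA against wild type gave 230. Numbers that pair nothing cost degrees of freedom, so the lost calls say nothing of a weaker effect.

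Of the named genes, the following changed sign with wild type as the control, with these log2 fold changes of All gRNA minus wild type: B2M 0.56, CCL20 -0.82, CDKN1A -0.32, CXCL8 -1.46, EGR1 -0.0106, ENPP2 0.38, ERAP1 0.0662, ERBB2 0.0834, EREG -0.30, FOSL1 -1.10, FOXC2 -1.17, FTL 0.0208, GJA1 -0.0564, HBEGF -0.92, HLA-C 1.15, IFIT1 3.89, IFIT2 3.17, IFIT3 2.81, ITGA1 0.30, ITGA6 -0.56, JUN -0.0502, KLF5 -0.46, KRT5 1.60, MKI67 -0.21, PERP -0.0893, PGAM1 -0.46, PHLDA1 -0.65, PTGS2 -0.45, QKI -0.21, RRM2 -1.01, RSAD2 4.44, SNAI2 -0.86, TGFBR2 -0.25 and TP63 -0.57. No gene called by TREAT changed sign in any alternative with No gRNA as the control. MBNL1 and DNMT1, which passed no test, changed sign around 0 when 1 library was left out, MBNL1 at -0.0358 to 0.0056 and DNMT1 at -0.0771 to 0.0540. Totals of 17114434 to 21473757 counts set the floor of 3 counts at about 0.168 CPM in No gRNA and 0.161 CPM in All gRNA, and changes below it were not detectable at this depth.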
